A study of Bos taurus with 32 samples.

Results

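The genes described here, 90 in number and called the members, were read mainly in the pituitary and were followed across 4 tissues of male Holstein calves. They were chosen by their tissue means. A gene was taken when its mean level in the pituitary was at least 2 CPM (a gene's count over the library total, times 1000000) and, after 0.5 CPM was added to each tissue mean, at least 8 times that of the hypothalamus, the testicle and the adrenal alike. Of 27607 genes counted, 100 met this rule. The 10 of highest pituitary mean were left out, which leaves the 90. Since tissue levels were used for this choice, the members' excess in the pituitary is a description and carries no test. The same rule gave 350 hypothalamus-enriched, 182 testicle-enriched and 69 adrenal-enriched genes.

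The IVP calves (3208, 3209, 5833 and 5841) came from embryos produced in vitro, and the control MOET calves (labelled 3213, 3217, 3218 and 5932) from embryos conceived by insemination of superstimulated cows. Recipient cows carried the embryos of both origins, and no other treatment is named. Tissue was taken at 98 to 104 days of age in 7 calves and at 144 days in calf 3213. Each calf gave 1 poly(A)-selected library per tissue, 32 libraries in all, with 20164948 to 23380330 counts in the pituitary and 17357283 to 23380330 overall. The files hold Ensembl identifiers without gene symbols, and 0 of them could be matched to a name. The roles of the members, their sequences and the markers of pituitary cell types are therefore not described, and whether the 10 genes left out are hormones was not checked.

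The pituitary joins an anterior lobe of secretory cells with a posterior lobe that holds the endings of hypothalamic axons. Releasing and inhibiting hormones from the hypothalamus reach the anterior lobe through portal vessels and set its output of growth hormone, prolactin, corticotropin, thyrotropin and the gonadotropins. Below the hormone messages themselves, a pituitary carries messages for the transcription factors that fix its cell types, for the receptors of hypothalamic peptides and for the machinery that cuts and packs prohormones. In bulk tissue, fewer cells of a type and less RNA per cell cannot be told apart.

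Not all columns of the count table behaved as separate libraries. Each column was compared with the depth-scaled mean of the other 3 of its tissue and origin, over genes with at least 1000 counts in all 4. The columns labelled MOET 3213 deviated from that mean by a median of 0.371% for hypothalamus, 0.179% for pituitary, 0.635% for testicle and 0.272% for adrenal. Counting error alone gives 1.40%, 1.61%, 1.42% and 1.56%. The column labelled IVP 5833 in the adrenal deviated by 0.661%, against a counting error of 1.43%. The other 27 columns lay 3.17% to 22.8% from the mean of their group. In the pituitary, the 3213 column fell within the range of the other 3 MOET libraries for 89 of 90 members.

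**Figure D1:**
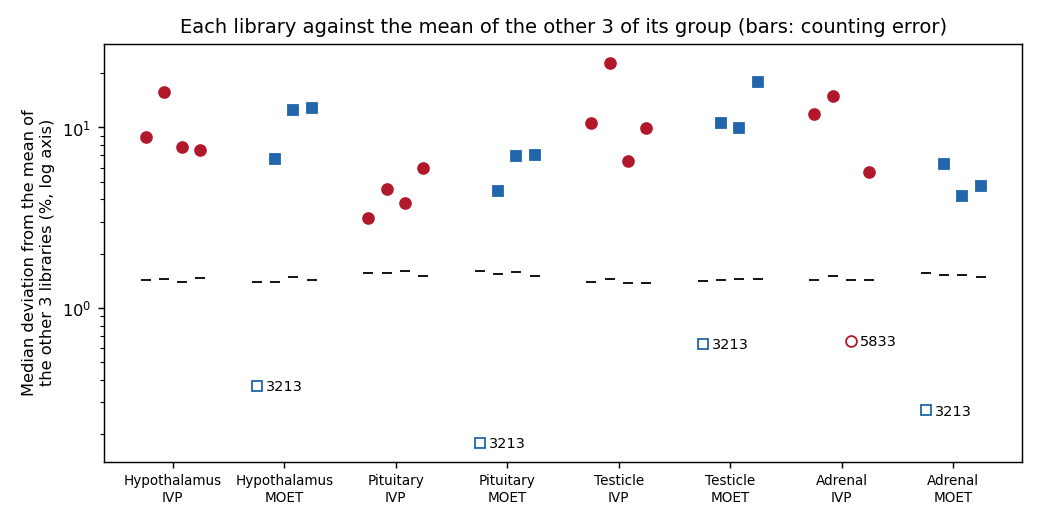
Median deviation of each column from the mean of the other 3 of its tissue and origin, in percent on a log axis, with IVP as circles, MOET as squares and short bars for counting error alone. The 5 open symbols, the 4 columns labelled 3213 and adrenal 5833, lie below counting error, and the other 27 lie between 3.17% and 22.8%.

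Over genes with at least 1000 counts, these 5 columns add no spread of their own to their groups. Low genes can differ: adrenal 5833 read 0.5215 CPM of 1 member where the other IVP adrenals read 0. Each test below was made with all columns, as designed, and again without the 5. The second version is called the independent libraries and leaves 4 IVP and 3 MOET libraries per tissue, or 3 and 3 in the adrenal. The tissue means that the rule used are over all 8 columns of a tissue. Values given as mean ± SD are over the independent libraries. Without the 5 columns the rule took 88 genes, of which 87 were among the 90.

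The members spanned a wide range in the pituitary and were low elsewhere. Their mean pituitary level over the 8 columns ran from 3.76 to 298.9 CPM with a median of 30.9, and the smallest count of any member in any pituitary library was 50. The hypothalamus was the next tissue for 59 members, the testicle for 23 and the adrenal for 8. The pituitary stood above the next tissue by 8.004- to 195-fold with a median of 13.4-fold (0.5 CPM added), and 33 members reached 16-fold. At the threshold, the 4 members nearest inside had folds of 8.004 to 8.204 and the 4 genes nearest outside 7.85 to 7.997. These values are those the rule used.

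The member of highest pituitary level had 298.9 CPM there, 13.5 in the hypothalamus, 6.60 in the testicle and 0.386 in the adrenal. A member with 230.4 CPM in the pituitary was spread more evenly over the other tissues, with 11.4 CPM in the hypothalamus, 21.2 in the testicle and 19.8 in the adrenal. At the other end, the member of largest fold (195) had 194.6 CPM in the pituitary, 0.5001 in the hypothalamus, 0.137 in the testicle and 0 for the adrenal. The member of lowest pituitary level had 3.76 CPM. The median member stood at 4.17% of its pituitary level in the hypothalamus, 2.11% in the testicle and 0.692% in the adrenal. In no independent library did more than 3 counts of a member appear for 5 members in the hypothalamus, 11 in the testicle and 25 in the adrenal.

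**Figure D2:**
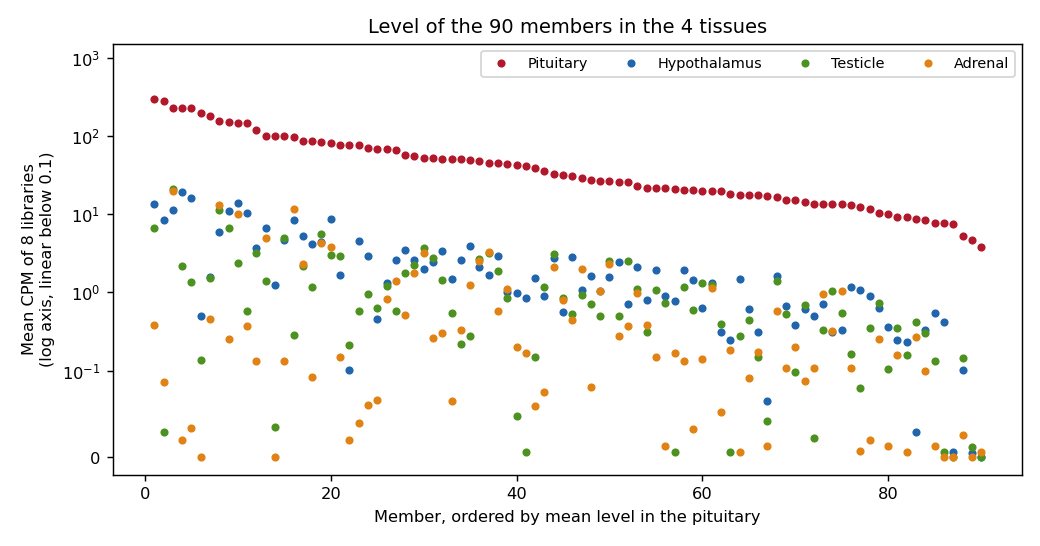
Mean CPM over the 8 columns of a tissue (log axis, linear below 0.1) for the 90 members, ordered by their mean in the pituitary. Pituitary means fall from 298.9 to 3.76 CPM, and the means in the other tissues lie below them by the rule.

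As a body the members summed to similar scaled levels in every pituitary, though 1 member weighed on the sum of MOET 5932. They took 0.438% to 0.600% of a library's counts, while the 10 most abundant pituitary-enriched genes took 23.4% to 37.7%. That share was lowest in IVP 5841 (23.4%) and MOET 5932 (24.3%) and highest in MOET 3218 (37.7%), so plain CPM of the members shifts with it. Levels per library are therefore given as CPM scaled with TMM factors, which set the bulk of genes level between libraries. On that scale the members summed to 5078 ± 114 CPM in IVP (SD, n = 4) and 5231 ± 125 CPM in MOET (SD, n = 3). The single libraries ran from 4965 to 5230 in IVP and from 5104 to 5354 in MOET, which overlap. Of the 5354 in MOET 5932, 1 member gave 800.5 CPM. That member gave 14.6 to 101.5 CPM in the other independent libraries, so the likeness of the sums and the MOET mean rest in part on it.

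Single members varied more between calves than their sum did. Over the 7 independent pituitaries the coefficient of variation of a member had a median of 17.1%, with a range of 2.81% to 176%. Genes of the same range of levels, 12089 in number, had a median of 10.4%. Of the members, 3 exceeded 50%, a share of 3.33% where 1.31% of those genes did. Another 21 of the members stayed under 10%, close to the median of those genes. The share of those genes under 10% was not counted. The most variable member read 14.6, 101.5, 45.2 and 51.5 CPM in IVP 3208, 3209, 5833 and 5841, and 53.6, 61.2 and 800.5 CPM in MOET 3217, 3218 and 5932. One library, 5932, held that member at 800.5 CPM, and both origins overlapped in the rest. Across members, IVP 5841 was the highest library for 25 and MOET 5932 the lowest for 25. The same was not counted over all genes, so these counts are no result about the members.

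Embryo origin was first tested in the pituitary, with edgeR's quasi-likelihood test fitted on all genes and p-values adjusted by Benjamini-Hochberg at 0.05. With all 8 columns, 14 of 90 members differed, 10 higher and 4 lower in IVP, where 15.3% of all genes tested differed, 7.51% higher and 7.78% lower. With the independent libraries, 2 of 90 differed, both higher in IVP, where 2.37% of genes differed and 1.01% were higher. In both versions the members' share, 15.6% and 2.22%, was near that of all genes and is no result about the members. The median log2 fold change of IVP over MOET was -0.02 with all columns and -0.03 with the independent libraries, where all genes had 0.00 in both. Of the 90 members, 50 changed by less than 0.2 on the log2 scale in the independent libraries. The IVP and MOET libraries did not overlap for 16 members, 9 higher and 7 lower in IVP, where 22.3% of genes did not overlap.

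ENSBTAG00000000438 rose in IVP pituitaries. It read 128.4, 118.6, 142.4 and 160.5 CPM in IVP 3208, 3209, 5833 and 5841, and 82.2, 52.8 and 44.8 CPM in MOET 3217, 3218 and 5932. The lowest IVP library stood above the highest MOET library, and the column labelled 3213 read 58.8. The means were 137.5 ± 18.2 CPM (SD, n = 4) and 59.9 ± 19.7 CPM (SD, n = 3), a log2 fold change of 1.19 with a standard error of 0.21. The edgeR adjusted p was 0.0452 with the independent libraries and 0.00790 with all columns. Over 25 alternatives it passed in 18, with an adjusted p from 8.67e-10 to 0.371. Most of these alternatives keep the 3213 column. With 3213 and a second calf left out, it passed only where that calf was 3217 or 5932. Outside the pituitary the gene was low, and it had 0 counts in every adrenal column and at most 2 in a testicle column. In the hypothalamus it read 0.0438, 0.753, 7.28 and 0 CPM in IVP and 0.0485, 0 and 0.897 CPM in MOET, so 1 IVP library held most of its reads there.

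ENSBTAG00000049919 also rose in IVP pituitaries, by less. It read 40.4, 33.0, 31.99 and 32.6 CPM in the 4 IVP libraries and 23.3, 26.4 and 21.0 CPM in MOET 3217, 3218 and 5932, again without overlap. The log2 fold change was 0.55 with a standard error of 0.11, and the edgeR adjusted p was 0.0452 with the independent libraries and 0.00940 with all columns. In the adrenal the same gene was lower in every IVP library, at 1.23, 1.501 and 1.71 CPM against 1.99, 3.10 and 2.22 CPM. That difference had a log2 fold change of -0.72 and an edgeR adjusted p of 0.152 with the independent libraries, and of 0.0214 with all columns. Over 25 alternatives the pituitary difference passed in 17, with an adjusted p from 1.63e-05 to 0.307. Most of these alternatives keep the column labelled 3213. In every fit that left out 3213 and a second calf, the difference did not pass.

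Of the 4 members lower in IVP with all columns, none passed with the independent libraries. ENSBTAG00000020269 read 9.32, 13.3, 9.70 and 12.4 CPM in IVP and 17.6, 15.5 and 15.3 CPM in MOET, without overlap. Its log2 fold change was -0.53 with a standard error of 0.14 and an edgeR adjusted p of 0.0682, against 0.0219 with all columns. ENSBTAG00000018843 read 25.5, 23.2, 15.7 and 25.4 CPM in IVP and 29.2, 108.6 and 115.3 CPM in MOET. Its MOET libraries thus lay in 2 places, 1 just above the IVP libraries and 2 far above. Its log2 fold change was -1.91 with a standard error of 0.47 and an edgeR adjusted p of 0.0825, against 0.0241 with all columns.

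**Figure D3:**
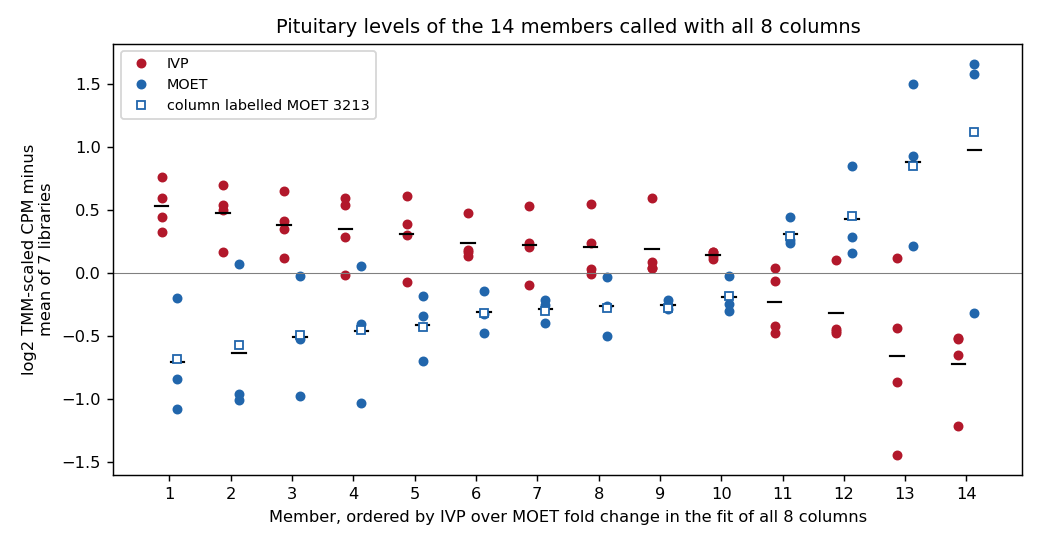
Pituitary level of the 14 members that passed with all 8 columns, as log2 TMM-scaled CPM minus the mean of the 7 independent libraries, with IVP in red, MOET in blue, the group means as bars and the column labelled 3213 as an open square. The first 10 are higher and the last 4 lower in IVP, and the 3213 square lies near the MOET mean in each.

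The calls changed with the tool and with the calves kept. Among the 10 higher in IVP, 5841 was the highest library in 6 and 5932 the lowest in 8. The same was not counted over all genes called. With the column 3213 left out, DESeq2 called 14 members, all among the same 14, where it called 9.63% of genes. Limma voom with quality weights called 6, of which 4 were among the 14, where it called 7.62% of genes. When 1 more calf was left out as well, edgeR called 0 members without 3208, 3209, 3218, 5833 or 5841, where it called 0.00631%, 0.0504%, 0.141%, 0.0818% and 0.0946% of genes. It called 2 without 5932 (4.64% of genes) and 4 without 3217 (0.561% of genes). At an unadjusted p under 0.05, 23 of 90 members passed with the independent libraries, 25.6%, where 24.6% of genes did.

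In the hypothalamus, where the members are low, 67 of 90 could be tested with the independent libraries. None passed in edgeR (0 of 67, where 0.00614% of genes passed), and none of 57 passed with all columns (0.0560% of genes). At an unadjusted p under 0.05 there were 19 of 67 with the independent libraries, 28.4%, where 13.3% of genes had that. DESeq2 called 2 of 67 with the independent libraries, where it called 1.53% of genes, and 16 of 57 with all columns, where it called 7.78%. Other fits that kept the 5 columns called many members: voom 37 of 57, where it called 53.7% of genes, and the fit of all 32 columns 39 of 90, where it called 11.1%. The values leaned one way: 61 of 67 members were higher in IVP, where 52.4% of genes were. The median log2 fold change was 1.44 against 0.02 for all genes. However, the count filter can admit a low member through the libraries of 1 origin alone. For members near that floor the direction is in part set by entry to the test, and this part was not separated. The libraries of the 2 origins did not overlap for 7 members, all higher in IVP, where 9.95% of genes did not overlap.

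One library stood apart. The members summed to 188.4, 291.6, 717.3 and 170.3 CPM in IVP 3208, 3209, 5833 and 5841, and to 116.2, 99.8 and 196.1 CPM in MOET 3217, 3218 and 5932. IVP 5833 stood far above the rest, while IVP 3208 and 5841 lay below MOET 5932. In 5833 the members had 17736 counts, and in each of the other 6 libraries 1733 to 6197. It was the highest library for 64 of 90 members, and for 53 of the 67 tested, where 13.3% of all genes tested were highest in it. Its level over the mean of the other 6 had a median of 3.95 over 84 members and exceeded 2 in 64 of them, while 7 members were not above that mean.

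The 10 most abundant pituitary-enriched genes moved with it in part. They took 0.367% of the counts of hypothalamus 5833 and 0.0283% to 0.154% in the other 6. The share in 5833 rests largely on 1 gene, which had 58075 counts there, while the next of the 10 had 10850. Gene by gene, 4 of the 10 were highest in 5833, and their median ratio to the other 6 was 0.941. Whether pituitary tissue in that hypothalamus sample has a part in these values was not tested. Without 5833 and 3213, 57 members could be tested and edgeR called 0, where it called 0.00622% of genes. At an unadjusted p under 0.05 there were 8 of 57, 14.04%, where 6.64% of genes had that. Their median log2 fold change was then 0.76, and 49 of 57 were higher in IVP, where 52.8% of genes were. The limit set by the count filter holds for these values too.

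**Figure D4:**
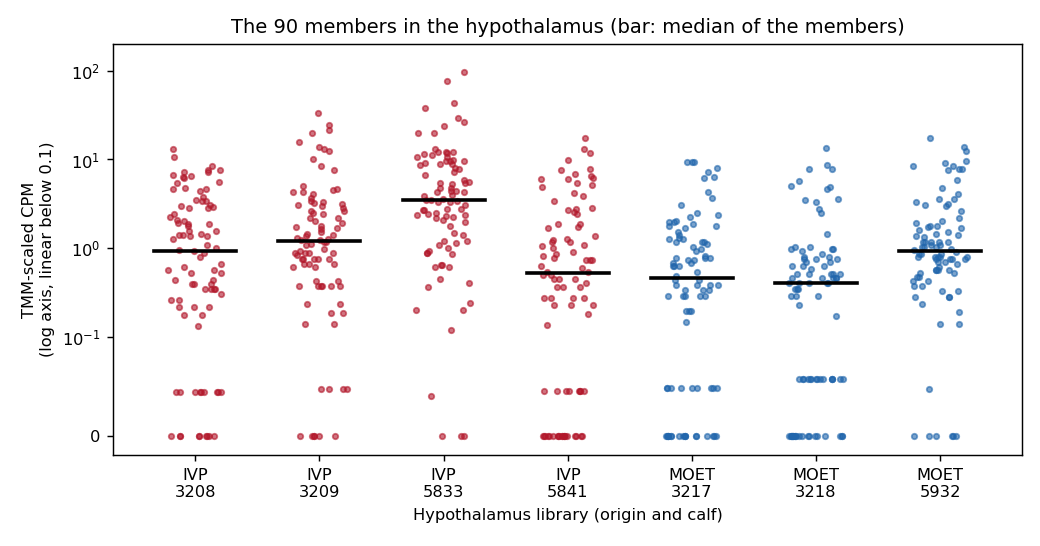
TMM-scaled CPM of the 90 members in the 7 independent hypothalamus libraries (log axis, linear below 0.1), IVP in red and MOET in blue, with the median over members as a bar. The bar stands at 3.5 CPM in IVP 5833 and between 0.403 and 1.2 CPM in the other 6.

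In the testicle the members leaned the opposite way and by less. None of 57 members passed in edgeR with the independent libraries (0.00605% of genes passed), and none of 56 with all columns (0.00612%). At an unadjusted p under 0.05 there were 11 of 57, 19.3%, where 4.99% of genes had that. DESeq2 called 0 with the independent libraries, where it called 0.375% of genes, and 1 of 56 with all columns, where it called 1.77%. With all columns, voom called 27 of 56 (33.7% of genes) and edgeR with a shared-axis covariate 6 of 56 (12.2%). That covariate scores each library on gene weights of within-origin variation in the other tissues, and the score itself can differ between origins. Of the 57, 48 were lower in IVP, where 44.4% of genes were. The median log2 fold change was -0.37 against 0.03 for all genes. Here too the count filter can admit low members through 1 origin alone. The origins did not overlap for 10 members, all lower in IVP, where 7.29% of genes did not overlap. The members summed to 121.9, 107.6, 142.7 and 119.8 CPM in the 4 IVP testicles and to 151.9, 147.2 and 133.6 CPM in the 3 MOET testicles, so IVP 5833 lay among the MOET libraries.

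The adrenal held too few reads for most members, and 28 of 90 could be tested with the independent libraries. With all columns, 7 of 27 differed, 1 higher and 6 lower in IVP, a share of 25.9% where 39.3% of genes differed, 20.8% higher and 18.5% lower. With the independent libraries edgeR called 0 of 28, where 0.0128% of genes passed, and DESeq2 called 2 of 28, where it called 15.6% of genes. At an unadjusted p under 0.05 there were 7 of 28, 25%, where 30.6% of genes had that. The summed level was 89.7, 149.7 and 99.8 CPM in IVP 3208, 3209 and 5841 and 94.2, 117.0 and 108.4 CPM in MOET, which overlap. Of the 7 members that passed with all columns, 2 had also passed in the pituitary. The same overlap was not counted over all genes, so it is no result about the members.

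**Figure D5:**
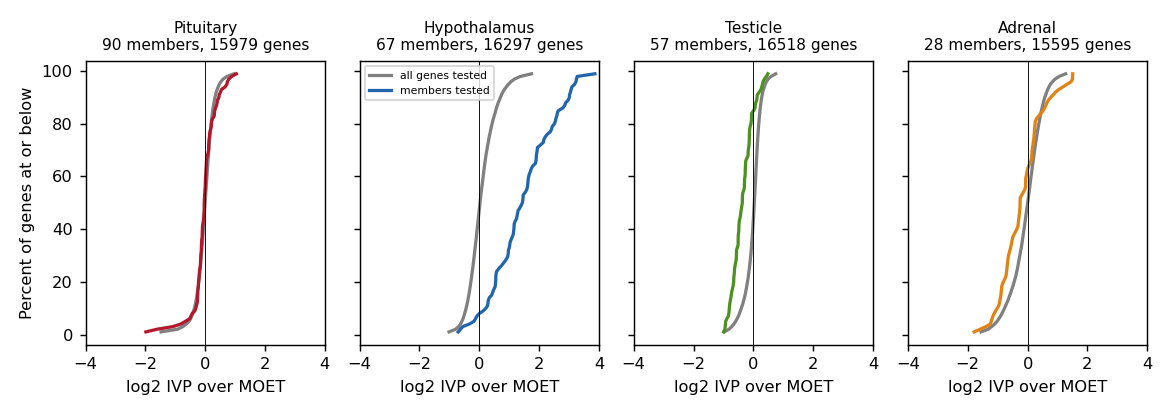
Percent of genes at or below each log2 fold change of IVP over MOET in the independent libraries, for all genes tested (grey) and for the members tested (colour), in the 4 tissues. The member curve lies on that of all genes in the pituitary. It lies to the right in the hypothalamus with a median of 1.44, and to the left in the testicle with a median of -0.37. In the latter tissues the count filter can admit low members through 1 origin alone.

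Whether the effect of origin differed between tissues was tested in 1 edgeR fit of all tissues. That fit takes the libraries of a calf as independent, though its tissues come from the same animal. With all 32 columns, 32 of 90 members passed, 35.6% where 30.2% of genes passed. The members' share is near that of all genes and is no result about them. Of these 32, 31 (96.9%) were higher in IVP hypothalamus and 24 (75%) had their largest change there. Of the 5517 genes that passed, 50.1% and 29.9% did. Both counts rest on all columns, and the hypothalamus values include IVP 5833, described above. With the independent libraries 1 of 90 passed, where 0.212% of genes did. That member, ENSBTAG00000002178, read 6.31, 4.33, 12.01 and 6.14 CPM in IVP hypothalami and 3.06, 2.48 and 3.54 CPM in MOET hypothalami. In the adrenal it read 1.86, 1.31 and 1.60 CPM in IVP and 2.68, 2.94 and 3.28 CPM in MOET. Its origins did not overlap in either tissue, and they lay in opposite order. Testicle levels were 1.31, 1.01, 2.39 and 1.52 CPM against 1.94, 3.21 and 3.06 CPM, and pituitary levels 78.6, 73.0, 81.0 and 85.1 CPM against 79.9, 100.2 and 96.5 CPM, with overlap in both. In the joint fit its log2 fold changes were 1.24 for hypothalamus, -0.19 for pituitary, -0.82 for testicle and -0.89 for adrenal, with an edgeR adjusted p for the difference of 0.0428.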

How the data were processed

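The table deposited by the authors holds unnormalized counts for 27607 Ensembl identifiers in 32 libraries, with 0 rows that name no gene. It was made with STAR 2.7 and HTSeq on bosTau9, per the submitters' processing notes. Libraries were poly(A)-selected, not strand-specific and paired-end on a DNBSEQ instrument, from RNA with an integrity number above 7, with read filtering by SOAPnuke, per the labels' protocols. The annotation release was not given in the sources used here, nor were the settings of the counting. Reads of overlapping antisense genes cannot be told apart, and genes that share sequence are uncertain.

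Low genes were dropped per tissue by filterByExpr (at least 10 counts, total of at least 15), and the rest were scaled with TMM and tested in edgeR with glmQLFit (robust) and glmQLFTest. Standard errors are the log2 fold change over the root of F. Replicates are separate calves. The members and lists were chosen with earlier results of these data known. Named members were to be those called in each test, those at either end of level, threshold and spread, and those on gene lists. Without symbols, the gene lists and the marker check were not run, and at most 2 members per direction of a comparison carry an identifier. Leaving out the 5 columns was chosen after seeing the data. A count floor of 3 stands for 0.173 CPM in the smallest library.

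Among 48 pairs of libraries of a group 0 were identical. The labels give the 4 tissues of a calf 1 number, so libraries pair across tissues, while IVP and MOET calves do not. Deviations of a calf's libraries correlated across tissues by -0.11 to 0.35 over 14025 genes. On simulated counts (dispersion 0.03, independent genes) the pituitary test of 15737 genes recovered 90 of 99 genes changed 2-fold. It recovered 99 of 99 changed 4-fold, with 17 false calls. These counts hold for that fixed dispersion and do not give the power with the 4 IVP and 3 MOET independent pituitaries. In those libraries 5 members changed more than 2-fold. The edgeR test called 2 members there, and ENSBTAG00000049919 among them changed less than 2-fold. Alternatives were DESeq2 (size factors or Wald test), limma voom with sample weights, no count filter, a covariate (age, or a shared-axis score: the first component of within-origin variation, its gene weights averaged over the other 3 tissues), all libraries in 1 fit, the calf as a block, other fold thresholds and calves left out. The shared-axis score of a library was not centred by origin. The versions were edgeR 4.0.16, DESeq2 1.42.0 and limma 3.58.1 in R 4.3.3, with figures by matplotlib 3.10.9 in Python 3.11.15.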

Additional observations from a re-analysis of the deposited data

Results flagged for a closer look

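Among members that passed in the pituitary with all columns, 3 had 1 IVP library far from the other 3. ENSBTAG00000049919 stood at 40.4 CPM in IVP 3208, above 31.99 to 33.0 CPM in the others. A member lower in IVP stood at 13.2 CPM in IVP 3209, above 8.85 to 9.06 CPM in the others. A member higher in IVP stood at 30.8 CPM in IVP 5841, above 21.0 to 21.7 CPM in the others. These are 3 of 17 groups examined with a criterion that flags about 5% of groups by chance (Dixon's gap test).

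The effect of origin differed between tissues for 32 of 90 members with all columns, 35.6% where 30.2% of all genes passed, so the count is no result about the members. ENSBTAG00000049919 was among them with an edgeR adjusted p of 0.0137, but of 0.146 without the 5 columns. With all columns its log2 fold changes were 1.08 for hypothalamus, 0.58 for pituitary, -0.62 for testicle and -0.73 for adrenal. The largest, in the hypothalamus, includes IVP 5833 at 2.75 CPM, where the other independent hypothalami read at most 1.58. ENSBTAG00000002178 was the 1 member that passed without the 5 columns, with an edgeR adjusted p of 0.0428.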

How the results depend on the processing

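Members called are counted here against 14 in the pituitary, 0 in the hypothalamus and testicle, 7 in the adrenal and 32 for the difference between tissues. Those counts are all with every column. The percent of all genes called in the same fit follows in brackets. Where a range over each calf left out is given, its upper count (17, 10 or 37) stands without that percent. These upper counts are no result about the members. In the pituitary the count was 40 with limma voom (47.8%), 2 with age as a covariate (1.68%), 2 with a shared-axis score (2.82%) and 3 in the fit of all 32 libraries (1.86%). It ran from 2 to 17 with each calf left out, with 2 without 3213 (2.37%), 3 without 3208 (4.91%) and 7 without 5833 (8.77%). Without 3213 it was 6 with voom (7.62%). When a second calf was left out as well, it was 4 without 3217 (0.561%), 2 without 5932 (4.64%) and 0 without any other (0.00631% to 0.141%). In the hypothalamus it was 16 with the DESeq2 Wald test (7.78%), 37 with voom (53.7%), 39 in the fit of all 32 libraries (11.1%) and 2 with DESeq2 without 3213 (1.53%). In the testicle it was 1 with DESeq2 (1.77%), 27 with voom (33.7%) and 6 with the shared-axis score (12.2%). In the adrenal it was 21 with voom (85.0%), 2 with age (18.8%), 0 with the shared-axis score (0.0194%), and 2 to 10 with each calf left out, with 2 without 3213 (20.7%), 3218 (15.6%) or 5833 (16.1%) and 3 without 5932 (19.9%). Without 3213 and 5833 it was 0 (0.0128%), and 2 with DESeq2 (15.6%). Choosing members at a fold of 4 or 16 leaves the fits as they are, and gave 43 of 227 and 6 of 31 in the pituitary (15.3%) and 25 of 92 and 1 of 6 in the adrenal (39.3%). The difference between tissues was called for 51 members with voom (74.5%), for 3 to 37 with each calf left out (3 without 3213, 1.76%; 7 without 3218, 4.93%; 10 without 5833, 5.01%; 18 without 3217, 14.7%), and for 1 without the 5 columns (0.212%). With the calf as a replicate block it was called for 30 (36.4%), and for 1 without the 5 columns (0.0868%). Causes of these shifts were not tested. The shared-axis score did not overlap between origins in the pituitary (IVP up to -0.124, MOET from -0.096) or the adrenal (IVP from -0.203, MOET up to -0.417). In these 2 tissues that covariate cannot be told apart from origin. ENSBTAG00000000438 passed in 18 of 25 alternatives and ENSBTAG00000049919 in 17 of 25, and none of the 14 members changed sign in any. Most of the 25 keep the 3213 column. With 3213 and a second calf left out, ENSBTAG00000049919 never passed, and ENSBTAG00000000438 passed only where that calf was 3217 or 5932. Age at collection is nearly the same as the label 3213 and cannot be told apart from it.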
